A study of Mus musculus with 5 samples.

Results

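The BMP pathway and the Id genes it drives were followed in 5 RNA-seq libraries of cultured neural stem and precursor cells from the adult mouse subventricular zone, the stem cell region beside the lateral ventricles. The 10 genes are Id1, Id2, Id3 and Id4, the ligands Bmp4 and Bmp7, the receptors Bmpr1a, Bmpr1b and Bmpr2, and the inhibitory Smad6. They were found by name among the 46078 genes of the per-library tables, 1 row of values per gene, and all 10 are listed there. They were selected on their levels 1 h and 8 h after PBS in these same libraries, so those levels are given as a description, with standard errors but no p-values.

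Bone morphogenetic proteins are secreted ligands that join type II receptors (Bmpr2) with type I receptors (Bmpr1a, Bmpr1b). The type I receptors then phosphorylate Smad1, Smad5 and Smad9. These Smads enter the nucleus with Smad4 and switch on Id1 to Id4, whose products are helix-loop-helix proteins without a DNA-binding region that capture E proteins and so block the bHLH factors that drive differentiation, while Smad6 dampens the receptors. In the adult subventricular zone, BMP and Id activity is known for stem cell maintenance, quiescence and astroglial fate.

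Both groups hold cells of C57BL/6 mice that the labels call adult, female, 5-8 weeks old and without mutation, and the study's methods give an older age. Dissociated cells had been plated on poly-D-lysine and received PBS as a sham exposure about a day later. The 1 h sham group has 2 libraries (replicates 1 and 2) and the 8 h sham group has 3 (replicates 13, 14 and 15). In the study the RNA of these cells, taken before differentiation, served as a negative control for astrocytes made from embryonic stem cells. By the labels the groups differ in time after PBS alone. No library without PBS was used here, so time after PBS and time after plating cannot be told apart. Nothing in the labels says that each library came from its own animal, although the methods count 1 animal as a biological replicate of these cells.

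Several facts of the libraries bear on every comparison. Library identifiers fall into 2 number series whose meaning no source used here gives, with both 1 h libraries and 8 h replicate 14 in series 1 and 8 h replicates 13 and 15 in series 2. Against the female label, the series 1 libraries listed between 137.6 and 180.9 TPM in sum for 4 Y-linked genes and at most 0.0611 TPM for Xist, the RNA of the inactive X chromosome. The series 2 libraries listed at most 0.0253 TPM for the Y-linked genes and 165.3 and 199.7 TPM for Xist. TPM (a gene's share of all transcripts after dividing by its length, scaled to 1000000) was taken from 1 table per library. A separate count table lists 7599 genes, with column totals from 13988166 to 18572154 reads. Among its 8 h columns the names went against the tables. Over 7480 genes, the log2 change from the 1 h mean in each column was set against that in each table, less the median gap. The change in the column named 8 h replicate 13 was within 0.1 log2 of that in the table of replicate 14 for 77.8% of genes. It was that close to its own table for 24.3%. The column named replicate 15 was that close to the table of replicate 13 for 77.9% and to its own for 40.4%. The column named replicate 14 was that close to the tables of 8 h replicates 13, 14 and 15 for 24.4%, 24.3% and 20.6% of genes. Its share with the table of 1 h replicate 2 was 38.5%. The 1 h tables make up the mean that changes are taken from, so no match is read from that share. Counts are given below under their column names, beside the TPM and never joined with it.

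Markers of the labelled cell type were present in every library. Summed TPM of 6 neural stem and precursor markers (Nes, Sox2, Fabp7, Slc1a3, Egfr, Vim) was 11211 to 11717 at 1 h and 11202 to 14352 at 8 h. Fabp7 made up most of that sum. Slc1a3 had 365.5 and 362.4 TPM at 1 h, then 588.5, 379.5 and 649.8 TPM at 8 h in replicates 13, 14 and 15, higher in every 8 h library. The other markers of this sum overlapped between the times. Summed TPM of 4 astrocyte markers (Gfap, Aqp4, Slc1a2, Aldh1l1) was 486 to 623 in the series 1 libraries and 814 to 822 in the series 2 libraries. The sum was mostly Aldh1l1 and hides larger gaps between the series. In log2(TPM + 1), the mean of 8 h replicates 13 and 15 exceeded 8 h replicate 14 by 3.68 for Gfap and 2.20 for Aqp4. The gap was 1.08 for Slc1a2 and 0.61 for Aldh1l1. Against the 1 h mean the same replicates were higher by 2.78, 1.61, 0.77 and 0.42 in that order. The part of these astrocyte genes in the Id values was not tested. For 5 oligodendrocyte lineage markers it was 1426 to 1740 at 1 h and 1175 to 1766 at 8 h. Of 5 endothelial markers, Cdh5 and Cldn5 were at 0 in all libraries and the sum, mostly Flt1, was 11.2 to 13.6 at 1 h and 10.02 to 12.4 at 8 h. The 6 mural and fibroblast markers summed to 0.859 to 0.868 at 1 h and 0.769 to 1.69 at 8 h, with Lum at 0.

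The DNA upstream of Id genes is shown first, because Smads act on Id promoters. Whether they act within the 250 bases searched here was not tested. GGCGCC, a palindrome that reads the same on both strands, and GTCT, searched on both strands, are the letters of the BMP-responsive element described for Id promoters. RefSeq (GRCm38.p6) gave promoter entries for 8 of the 10 genes, all but Id1 and Bmp7, so no window of Id1 was searched. In the 250 bases before the RefSeq start, GGCGCC was found in 1 place each in Id2, Id4, Bmpr1a and Bmpr2 and in none in Id3, Bmp4, Bmpr1b and Smad6. Over all 32851 promoters, 9.59% held GGCGCC, 82.9% held GTCT and 0.0700% held both with 5 bases between, a pair that no window of the 8 genes held. GTCT was found in 1 place in Id2, 2 in Id3 and 0 in Id4. GC content of these windows was 62.8% in Id2, 62.8% in Id3 and 75.6% in Id4. The stretches at the 5′ end of the windows of Id2, Id4 and Bmpr1a that overlap no annotated exon (GENCODE vM21) are printed 5′ to 3′, with GGCGCC in capitals, to show the same 6 letters upstream of the RefSeq starts of 2 Id genes and of a receptor gene. By the GENCODE spans the Id4 stretch lies outside the gene, whereas those of Id2 and Bmpr1a lie within theirs, downstream of an earlier annotated start. They lie at chr12:25096254-25096342 on the minus strand (89 bases, Id2), chr13:48260866-48261115 on the plus strand (250 bases, Id4) and chr14:34502688-34502796 on the minus strand (109 bases, Bmpr1a).
Id2: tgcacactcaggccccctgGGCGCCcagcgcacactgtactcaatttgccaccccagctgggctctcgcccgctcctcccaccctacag
Id4: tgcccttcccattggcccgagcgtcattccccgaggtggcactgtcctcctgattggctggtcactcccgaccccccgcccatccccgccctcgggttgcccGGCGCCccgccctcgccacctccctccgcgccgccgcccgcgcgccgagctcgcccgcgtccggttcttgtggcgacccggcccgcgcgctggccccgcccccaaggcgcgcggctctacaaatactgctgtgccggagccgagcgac
Bmpr1a: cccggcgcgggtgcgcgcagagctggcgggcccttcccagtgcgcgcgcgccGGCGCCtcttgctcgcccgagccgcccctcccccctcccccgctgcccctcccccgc
A letter match is a description and does not show a Smad bound there. No such match says only that the letters are not in the window.

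All 4 Id genes stood lower at 8 h than at 1 h in every library. Summed over Id1 to Id4, TPM was 498.0 and 489.0 in the 1 h replicates and 268.8, 333.9 and 235.1 in 8 h replicates 13, 14 and 15. The sum averaged 493.5 ± 6.37 (SD, n = 2) at 1 h and 279.3 ± 50.2 (SD, n = 3) at 8 h. On the log2(TPM + 1) scale used for all differences, which understates the difference of low genes, the median over the 4 Id genes of the 8 h minus 1 h difference was -1.02. The median over the 13870 genes whose mean TPM reached 1 was 0.10, with 5% of them below -0.40 and 5% above 0.63. In whole-culture RNA, fewer cells expressing a gene and less of its RNA per cell cannot be told apart.

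Id1 (chr2:152736251-152737410, plus strand) encodes the family member most often used as a readout of BMP signalling. Its TPM was 67.7 and 67.6 at 1 h, and 32.5, 36.5 and 32.1 in 8 h replicates 13, 14 and 15. Both groups were tight and far apart, with the 8 h mean at 49.8% of the 1 h mean and a log2 difference of -0.99 (SE 0.10, limma). The count table used here does not list Id1.

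Id2 (chr12:25093801-25096092, minus strand) was the Id gene with the highest mean at 1 h and is known as an inhibitor of oligodendrocyte and neuronal differentiation. It had 234.7 and 199.9 TPM at 1 h, then 90.2, 151.9 and 80.6 TPM at 8 h in replicates 13, 14 and 15. Every 8 h value was under both 1 h values, and replicate 14 lay between the 1 h pair and the other 8 h replicates. The log2 difference was -1.06 (SE 0.28). In the count table the columns held 2966 and 3029 reads at 1 h and 2477, 2973 and 1392 at 8 h for the names 13, 14 and 15, or 212.0 and 183.3 against 137.4, 205.4 and 75.0 CPM (counts scaled to a column total of 1000000). There the groups overlapped, because the column named replicate 14 lay inside the 1 h range.

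Id3 (chr4:136143497-136145755, plus strand), a close relative of Id1, had 175.3 and 204.9 TPM at 1 h. Its TPM at 8 h was 138.7, 140.0 and 113.6 in replicates 13, 14 and 15. All 8 h libraries were lower, by a smaller margin than for Id1, Id2 and Id4, with the 8 h mean at 68.8% of the 1 h mean and a log2 difference of -0.54 (SE 0.13). CPM was also lower in every 8 h column, with 154.8 and 183.1 at 1 h and 123.6, 104.2 and 113.4 at 8 h for the names 13, 14 and 15.

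Id4 (chr13:48261427-48264036, plus strand), which in neural stem cells is tied to quiescence, was the Id gene at the lowest level and with the most negative log2 difference. TPM was 20.3 and 16.5 at 1 h, and 7.48, 5.48 and 8.78 in 8 h replicates 13, 14 and 15. No 8 h value came near the 1 h pair, and the 8 h mean was 39.3% of the 1 h mean, a log2 difference of -1.25 (SE 0.21). Reads numbered 372 and 364 at 1 h and 131, 197 and 166 at 8 h, that is 26.6 and 22.03 against 7.27, 13.6 and 8.94 CPM. The Poisson counting error was between 5.18% and 8.74% of each Id4 count, and it leaves out the spread between libraries.

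**Figure D1:**
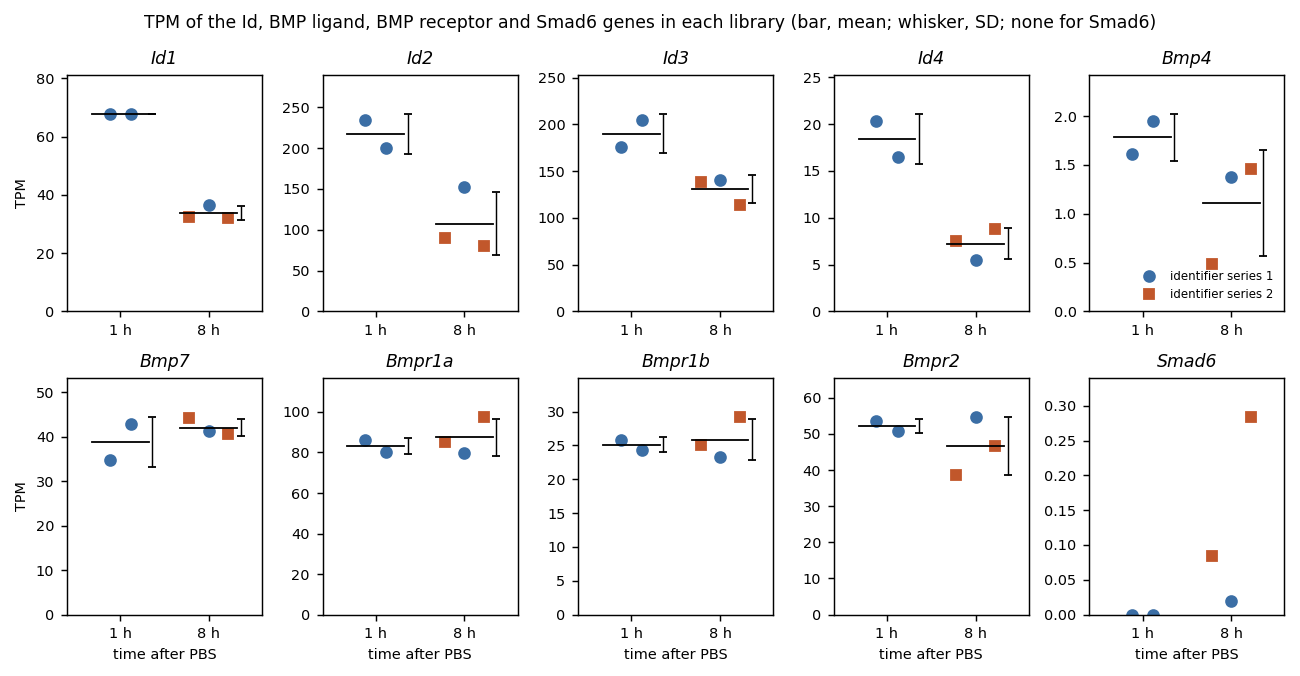
TPM of each of the 10 genes (y axis, from 0) at 1 h and 8 h after PBS (x axis), 1 point per library, with circles for identifier series 1 and squares for series 2. Horizontal bars are group means and whiskers 1 SD (n = 2 and 3), both left out for Smad6. Id1, at 67.7 and 67.6 TPM at 1 h and 32.1 to 36.5 TPM at 8 h, shows the tightest separation, while the ranges of Bmp7 and of the 3 receptors overlap between the times.

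The make-up of the Id pool differed in its means, within wide spreads. Id2 made up 44.0% ± 4.41 (SD, n = 2) of summed Id TPM at 1 h and 37.8% ± 6.70 (SD, n = 3) at 8 h. Id3 made up 38.6% ± 4.74 at 1 h and 47.3% ± 4.92 at 8 h. In 8 h replicate 14 the shares of Id2 and Id3 were 45.5% and 41.9%, inside or next to the 1 h range, whereas in replicates 13 and 15 Id3 held 51.6% and 48.3%. Id1 held between 10.9% and 13.8% in every library.

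The ligands were unlike each other in level. Bmp7 (chr2:172868012-172940321, minus strand), a secreted ligand of the BMP family, had 34.8 and 42.8 TPM at 1 h, and at 8 h its TPM was 44.2, 41.2 and 40.6 in replicates 13, 14 and 15. The groups overlapped, with a log2 difference of 0.12 (SE 0.12). Bmp4 (chr14:46383520-46390669, minus strand), a ligand known to act on subventricular zone stem cells, was near the floor with 1.61 and 1.95 TPM at 1 h, then 0.482, 1.37 and 1.46 TPM at 8 h. All 8 h values were lower, by a log2 difference of -0.43 (SE 0.28), with replicate 13 farthest below. The count columns of Bmp4 gave 31 and 42 reads at 1 h and 35, 153 and 11 at 8 h, so its direction in the counts, 0.82 (SE 1.08, edgeR), was opposite to that in TPM and rested on the column named replicate 14. Without that column the Bmp4 difference in the counts was -0.92.

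Receptor RNA was abundant and similar at both times. Bmpr1a (chr14:34410734-34503341, minus strand), a type I receptor, had 86.1 and 80.4 TPM at 1 h, then 85.2, 79.8 and 97.4 TPM at 8 h. Bmpr1b (chr3:141837136-142169425, minus strand), the other type I receptor, had 25.9 and 24.3 TPM at 1 h, then 25.0, 23.2 and 29.2 TPM at 8 h. Bmpr2 (chr1:59763400-59879014, plus strand), the type II receptor, had 53.6 and 50.9 TPM at 1 h, then 38.7, 54.6 and 46.5 TPM at 8 h. All 3 receptors had overlapping groups, with log2 differences of 0.07 (SE 0.12), 0.03 (SE 0.13) and -0.17 (SE 0.16) in that order. In the counts, Bmpr1a was at 359.4 and 342.2 CPM at 1 h and 333.9, 299.6 and 327.3 CPM at 8 h, lower in every 8 h column by a log2 difference of -0.16 (SE 0.10).

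Smad6 (chr9:63953076-64022059, minus strand), which blocks BMP receptors and is itself a BMP target, was listed at 0 in both 1 h libraries. At 8 h it was listed at 0.0844, 0.02 and 0.284 TPM in replicates 13, 14 and 15, a level at which no fold is given.

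Ordered by mean TPM at 1 h, the genes ran Id2 (217.3), Id3 (190.1), Bmpr1a (83.3), Id1 (67.7), Bmpr2 (52.3), Bmp7 (38.8), Bmpr1b (25.1), Id4 (18.4) and Bmp4 (1.78). Of these neighbours Id2 and Id3 overlapped in range and the others did not. At 8 h the order of mean TPM was Id3 (130.8), Id2 (107.6), Bmpr1a (87.5), Bmpr2 (46.6), Bmp7 (42.0), Id1 (33.7), Bmpr1b (25.8), Id4 (7.24) and Bmp4 (1.11). There Id3 and Id2, Id2 and Bmpr1a, and Bmpr2 and Bmp7 overlapped in range. Id1 thus stood above Bmpr2 and Bmp7 in both 1 h libraries and below them in all 3 libraries at 8 h.

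Of the 10 genes, 9 passed the filter of a mean TPM of at least 1, all but Smad6. Calls needed an adjusted p no larger than 0.05 together with a log2 fold change beyond 1 in either direction, and limma called 0 of these 9, beside 0.0433% of the 13870 genes tested (6 genes, with 1712 at an unadjusted p under 0.05). In 5 of the 9 (Id1 to Id4 and Bmp4) all 8 h libraries were below both 1 h libraries, beside 9.43% of all genes tested, and in 0 of the 9 were they all above, beside 23.7%. The genes were chosen by these very values, so nothing is read from the counts. In the count table, edgeR called 0 of the 6 genes listed there, beside 0% of 7590 genes tested, with 199 of them at an unadjusted p under 0.05 and 227 by DESeq2, which also called 0. Id3, Id4 and Bmpr1a, 3 of these 6, had all 8 h columns below both 1 h columns, beside 7.05% of genes.

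The 8 h libraries of both identifier series lay on the same side of the 1 h pair for every Id gene, at different distances. Within series 1, 8 h replicate 14 alone differed from the 1 h mean by -0.87 for Id1, -0.51 for Id2, -0.43 for Id3 and -1.58 for Id4 on the log2 scale. The mean of 8 h replicates 13 and 15 differed from it by -1.04, -1.34, -0.59 and -1.09. Id2 was thus 0.83 lower in the series 2 libraries than in replicate 14 and Id4 was 0.49 higher, beside gaps between replicates 13 and 15 of 0.16 and 0.21. Within series 1 the median of the 4 Id genes was -0.69, beside 0.01 for all genes tested. Among the other genes, Bmpr2 was at 0.06 within series 1 and at -0.29 in replicates 13 and 15 against 1 h, and Bmp7 was at 0.09 and 0.13.

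**Figure D2:**
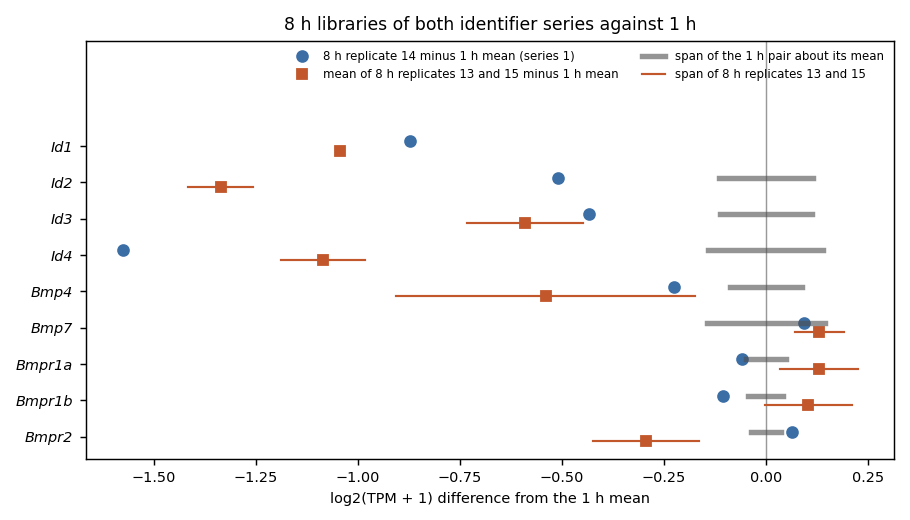
Difference from the 1 h mean on the log2(TPM + 1) scale (x axis) for the 9 genes whose mean TPM reached 1 (y axis). Circles are 8 h replicate 14, of the same identifier series as the 1 h libraries, squares the mean of 8 h replicates 13 and 15, grey bars the span of the 1 h pair and thin lines the span of replicates 13 and 15. All Id genes lie left of the 1 h span in both series, with the widest gap between series for Id2 (-0.51 and -1.34).

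Summed markers of 3 other cell types were lower in every 8 h library, each sum resting mostly on 1 gene. The summed TPM of 4 ependymal and choroid plexus markers, mostly Foxj1 with Ttr at 0, was 23.7 to 27.5 at 1 h and 16.3 to 18.8 at 8 h, while Rsph1 and Ccdc153 overlapped between the times. That of 4 neuroblast and neuron markers (Dcx, Tubb3, Rbfox3, Stmn2) was 48.6 to 50.1 at 1 h and 27.0 to 43.9 at 8 h, mostly Tubb3, while Dcx and Rbfox3 overlapped. For 5 microglia markers, with Aif1 and Tmem119 at 0, it was 1.31 to 1.47 at 1 h and 0.461 to 0.718 at 8 h, nearly all P2ry12, while Csf1r overlapped. The part of these markers in the Id values was not tested.

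The other genes of the pathway were examined by list, none of which holds any of the 10 genes, with limma over all genes tested. No gene of any list was called. Of 11 other BMP ligands, none reached a mean TPM of 1 and 4 were at 0 in all libraries. Bmp2 was listed at 0.621 and 0.511 TPM at 1 h and at 0.178, 0.509 and 0.148 TPM at 8 h. Mean TPM was 0.348 for Bmp6 and 0.183 for Gdf6, so of the BMP ligands examined only Bmp7 and Bmp4 passed 1 TPM in the mean.

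Of 8 further receptors and co-receptors, 6 were tested, with a median log2 difference of -0.19. In 3 of the 6 all 8 h libraries were lower, beside 9.43% of all genes tested. Acvr1, a type I receptor, had 21.2 and 24.5 TPM at 1 h, then 17.8, 18.8 and 18.6 TPM at 8 h, a difference of -0.30 (SE 0.12, adjusted p = 0.403). The co-receptor Rgma was at -0.23 (adjusted p = 0.582) and its partner Neo1 at -0.15 (adjusted p = 0.523). The signal-carrying Smads did not share a direction. Smad5 had 75.8 and 58.9 TPM at 1 h, then 103.5, 83.1 and 114.9 TPM at 8 h in replicates 13, 14 and 15, higher in all 8 h libraries by 0.57 (SE 0.18, adjusted p = 0.360). Smad1, which acts at the same step, was lower in all 8 h libraries by a difference of -0.22 (adjusted p = 0.422), and Smad4, the partner of both, was at 0.03 (adjusted p = 0.92). Smad9 and Smad7, the other inhibitory Smad, had mean TPM of 0.766 and 0.800 and were not tested.

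Among 15 extracellular antagonists, a list that includes the decoy receptor gene Bambi, 8 were tested, with a median of 0.32. Of these 8, 2 had all 8 h libraries lower and 0 all higher, beside 9.43% and 23.7% of all genes tested. Nbl1 had 54.2 and 59.0 TPM at 1 h, then 100.7, 55.4 and 92.7 TPM at 8 h in replicates 13, 14 and 15, so its difference of 0.50 (adjusted p = 0.448) came from the series 2 libraries and was -0.03 within series 1. Fstl1 (0.36, adjusted p = 0.630) and Twsg1 (0.42, adjusted p = 0.499) turned to -0.39 and -0.13 within series 1. The antagonists Nog and Chrd, classic BMP blockers of the stem cell niche, had mean TPM of 0.890 and 0.897. They and Bambi are named outside the naming rule, after their values were seen. Bambi, itself a BMP target, had 5.50 and 5.05 TPM at 1 h, then 3.35, 3.80 and 3.56 TPM at 8 h, a difference of -0.46 (SE 0.15, adjusted p = 0.369).

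Of 6 intracellular regulators all were tested, with a median of -0.07. Of these 6, 2 had all 8 h libraries lower and 1 all higher, beside 9.43% and 23.7% of all genes tested. Smurf2, a ubiquitin ligase for BMP Smads, was at 0.31 (adjusted p = 0.402) with all 8 h libraries higher. Tob1 was at -0.13 (adjusted p = 0.526) with all 8 h libraries lower. The co-repressor Ski, at -0.01 (adjusted p = 0.969), and Zeb2, at -0.21 (adjusted p = 0.756), overlapped between the times. Of 7 other BMP target genes, 2 were tested. Hey1, a target of both BMP and Notch signals, had 110.8 and 111.1 TPM at 1 h, then 94.6, 97.0 and 89.3 TPM at 8 h, a difference of -0.24 (SE 0.09, adjusted p = 0.385). Atoh8 was at -0.01 (adjusted p = 0.983), and Msx1 had a mean TPM under 1 and was not tested.

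Genes of bHLH factors, chosen as possible partners of Id proteins, formed the last list, with 9 of 13 tested and a median of -0.06. Not all of them drive differentiation. Hes5, a Notch target, had 13.0 and 24.6 TPM at 1 h, then 6.88, 7.15 and 9.57 TPM at 8 h, a difference of -1.11 (SE 0.29, adjusted p = 0.309) that was -1.21 within series 1. Hes5 was the only gene of the list with all 8 h libraries on one side of the 1 h pair. Over all genes tested, 9.43% had them all below and 23.7% all above. Olig1 (-0.06, adjusted p = 0.916), Olig2 (0.29, adjusted p = 0.523) and the E protein gene Tcf12 (-0.19, adjusted p = 0.474) overlapped between the times, Olig1 at 972.1 to 1630 TPM over all libraries.

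**Figure D3:**
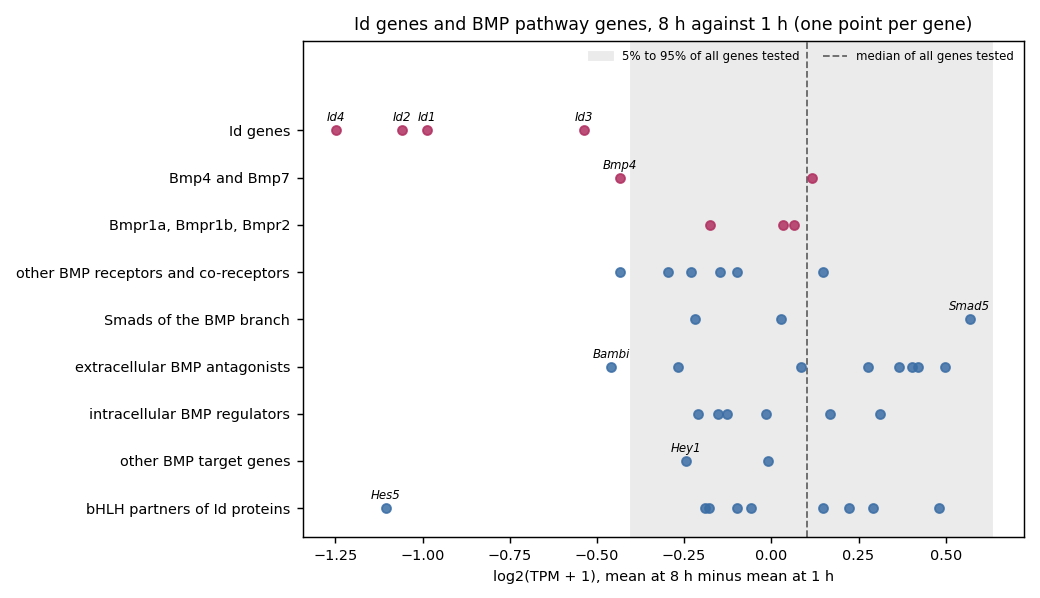
Mean at 8 h minus mean at 1 h on the log2(TPM + 1) scale (x axis) for the 9 genes whose mean TPM reached 1 (red) and for the tested genes of the other pathway lists (blue), 1 point per gene. The shaded band spans 5% to 95% of all 13870 genes tested (-0.40 to 0.63) and the dashed line their median (0.10). The 4 Id genes, Bmp4, Hes5, Bambi and the receptor gene Acvr2b lie to the left of the band.

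Outside the pathway, the 5 genes whose pattern over the 5 libraries was most like the mean of Id1 to Id4 were Per2, Srsf5, Arvcf, Nedd9 and Synpo, among 9475 genes whose mean TPM reached 10. Likeness was the root mean square distance between log2(TPM + 1) values, each centred on its own mean, and was 0.06, 0.08, 0.10, 0.11 and 0.14, beside a root mean square of the Id pattern about its own mean of 0.47. Per2, a repressor of the circadian clock, had 18.6 and 18.8 TPM at 1 h, then 9.98, 10.3 and 8.94 TPM at 8 h in replicates 13, 14 and 15. Srsf5, a splicing factor, had 373.9 and 326.2 TPM at 1 h, then 178.8, 218.0 and 166.5 TPM at 8 h. With 5 libraries in 2 groups, any gene with a similar step between the groups ranks near the top.

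Taken singly, among all genes tested, Id1 was nearest to Itgb1bp2, Hs3st1 and Per2 (distances 0.04, 0.06 and 0.07), Id2 to Rasd1, Lgr6 and Ecm1 (0.05, 0.08 and 0.09) and Id3 to Zkscan14, Dusp26 and Gm12854 (0.05, 0.06 and 0.06). Id4 was nearest to Klf11, Gm21992 and 5033430I15Rik (0.11, 0.13 and 0.18). No Id gene was among the 3 nearest genes of another Id gene. Bmpr1a was the third nearest gene to Bmpr1b (0.02), the only such link within the 10 genes.

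**Figure D4:**
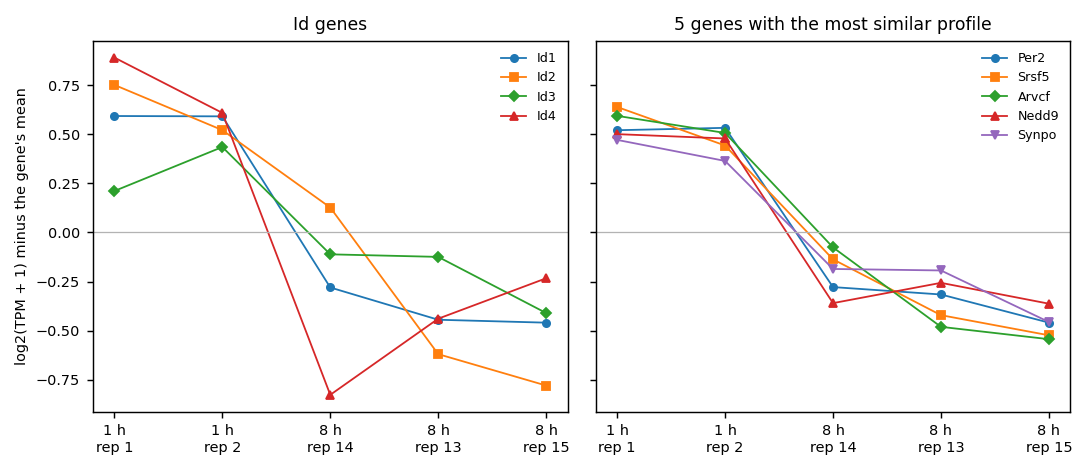
log2(TPM + 1) minus each gene's own mean (y axis) in the 5 libraries (x axis, 1 h first, then 8 h replicate 14 and 8 h replicates 13 and 15) for the 4 Id genes (left) and the 5 genes with the most similar profile (right). Lines only join the values of 1 gene. The mean of the Id genes was 0.61 and 0.54 at 1 h and -0.41, -0.27 and -0.47 in 8 h replicates 13, 14 and 15, and Id2 and Id4 part most in replicate 14.

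Gene build was not used to choose the genes. By the GENCODE vM21 annotation Id1 spans 1160 bases, Id2 3342, Id3 2259 and Id4 4799, beside 7150 for Bmp4, 68984 for Smad6, 72310 for Bmp7, 92608 for Bmpr1a, 115615 for Bmpr2 and 332290 for Bmpr1b. The longest coding transcripts of Id1, Id2 and Id3 measured 1160, 1969 and 1278 bases, under the median of 3266 over 11952 coding genes tested, and that of Id4, at 3849, was above it. GC content of these transcripts was 54.7% for Id1, 45.1% for Id2, 55.6% for Id3 and 42.6% for Id4, around a median of 50%. Coordinates of Id2 and Id4 in the deposited tables differ from that annotation and are printed here as the tables give them.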

How the data were processed

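RNA was isolated with RNeasy columns, made into stranded poly-A libraries and read from both ends. Per the submitters' notes, reads were demultiplexed with bcl2fastq 2.19.1.403, and the authors aligned them to GRCm38 with STAR in nf-core/rnaseq and counted them with featureCounts. The deposited counts are whole reads per gene, not normalized, and the count table covers 7599 of 46078 genes, holding 51.3% to 56.7% of each library's TPM, so its totals are not the full depth. The authors also deposited per-library tables of TPM, FPKM and mean per-base coverage, made with a tool not given in the sources used here. From the deposited FPKM and coverage values only their ratio was taken, as a measure of depth, and it ranged from 4.00 to 5.21. TPM was summed per gene identifier (15 to 20 repeat rows per table). All 5 count columns were assigned by name.

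The 10 genes and all gene lists were chosen with earlier results of these data known. TPM was tested with limma 3.58.1 (R 4.3.3) (trended prior variance, log2(TPM + 1), mean TPM 1 or higher), and counts with edgeR 4.0.16 (quasi-likelihood, TMM, filterByExpr), both with Benjamini-Hochberg adjustment over all genes tested and no covariate. Calls needed an adjusted p no larger than 0.05 and a log2 fold change beyond 1 in either direction, the study's thresholds. P-values measure the spread between these libraries, which may be technical, and counting errors cover counting only. From each pathway list the text names genes called, the 3 with the highest mean TPM and the 2 with the largest difference at a mean TPM of at least 5. A gene that this rule names is not reported here, though list counts and medians include it. Alternatives were pseudocount 0.1, no filter, other scaling, DESeq2 1.42.0 (alpha 0.1), the identifier series as a term, series 1 alone and leaving out each library. The fits were tested on simulated data.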

Additional observations from a re-analysis of the deposited data

How the results depend on the processing

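The number of genes called in TPM was 6, and 4 to 7 with pseudocount 0.1, median-ratio scaling or series 1 alone. It was 0 with no filter on low values and 19 with the identifier series as a term, and between 0 and 568 when a library was left out. Leaving out 8 h replicate 14 gave 568 and 8 h replicate 13 gave 1, and dropping either 1 h library or 8 h replicate 15 gave 0. Without 8 h replicate 14, every 1 h library is of series 1 and every 8 h library of series 2. Time then cannot be told apart from the series, or from the Y-linked and Xist RNA that split with it. The cause of these changes in number was not tested. No count alternative called a gene (edgeR and DESeq2, with 31 to 641 genes at an unadjusted p under 0.05). The median of the 4 Id genes was -1.02, -0.69 with the series as a term or in series 1 alone, both of which rest on 8 h replicate 14, and -1.08 to -0.92 without 1 library. The median of the 10 genes was -0.30, -0.39 with median-ratio scaling, -0.16 with the series as a term or in series 1 alone, and -0.42 to -0.12 without 1 library (-0.12 when 8 h replicate 13 was dropped). In TPM, Id1 (-1.10 to -0.87), Id2 (-1.34 to -0.51), Id3 (-0.65 to -0.43) and Id4 (-1.58 to -1.09) were below 0 in all 11 settings. Bmp7, Bmpr1a, Bmpr1b and Bmpr2 took both signs. In the counts, Id2 ranged from -0.91 to 0.02, above 0 in 1 setting, and Bmp4 from -0.92 to 2.11. Both upper values come from the series as a term by column name, and the 8 h column names went against the tables. Median-ratio scaling moved the median of all genes from 0.10 to -0.0042. No paired analysis was possible because the groups share no replicate number. Smad6 and Bmp4 lie near the lowest levels listed.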
